A study of Homo sapiens with 5 samples.

Results

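A set of 10 microRNA genes with known roles in epithelial identity or in cancer were examined for open chromatin in MCF10A, an immortalized and non-tumorigenic human mammary epithelial line. They were chosen by name, by a rule that uses no measured value but with earlier results of these data known, and are 10 of the 1879 genes that GENCODE release 44 classes as miRNA on chromosomes 1 to 22, X and Y. They lay at 6 loci: MIR200B, MIR200A and MIR429 on chromosome 1, MIR200C and MIR141 on chromosome 12, MIR205 on chromosome 1, MIR21 on chromosome 17, MIR31 on chromosome 9, and MIR221 with MIR222 on the X chromosome. Open chromatin was measured by ATAC-seq, in which the transposase Tn5 inserts sequencing adapters into accessible DNA. The cells were at baseline, and all samples had the same medium. It held 10 µg/ml insulin, 20 ng/ml of the growth factor EGF, 100 ng/ml of cholera toxin, 0.5 µg/ml of the steroid hydrocortisone and horse serum at 5%. The 5 replicates were pooled by the authors before regions of read enrichment, called hotspots, were found, so no value below has a replicate error and no test between samples could be made. The list held 181723 hotspots, each with a position and a score that serves here only to rank it. The median score was 5.81, the quartiles were 4.86 and 8.62, and the highest was 912. The depth of sequencing is unknown.

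MicroRNAs are cut from a hairpin in a longer primary transcript, and the start of that transcript can lie far from the hairpin. The mature strand pairs with target mRNAs mainly through its seed, bases 2 to 8, so microRNAs with the same seed share many targets. The miR-200 family and miR-205 keep epithelial cells epithelial by repressing ZEB1 and ZEB2, which in turn repress the miR-200 genes. miR-21, miR-31, miR-221 and miR-222 are best known from tumours, where miR-21 represses the tumour suppressor PDCD4 and the miR-221/222 pair represses the cell cycle inhibitor CDKN1B.

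The mature strands are shown because the seeds divide the members into families that do not follow the loci. Each is written 5′ to 3′ from RefSeq (GRCh38.p14), with the seed in capitals. The first group held members of both miR-200 loci.
miR-200b-3p: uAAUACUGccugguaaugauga
miR-200c-3p: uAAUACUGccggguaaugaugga
miR-429: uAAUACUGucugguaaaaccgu
The second group of the miR-200 family also drew on both loci, and its seed differed from that of the first at 1 of 7 positions.
miR-200a-3p: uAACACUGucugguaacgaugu
miR-141-3p: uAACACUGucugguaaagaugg
The X-linked pair shared a seed and, base by base from the 5′ end without gaps, 11 of 21 positions. Such a count falls when the bases after the seed are shifted, and an alignment with gaps was not made.
miR-221-3p: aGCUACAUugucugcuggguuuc
miR-222-3p: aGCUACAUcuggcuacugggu
The other 3 members each had a seed of their own.
miR-205-5p: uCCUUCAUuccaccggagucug
miR-21-5p: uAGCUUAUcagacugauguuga
miR-31-5p: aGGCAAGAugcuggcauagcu
Thus the 10 members carried 6 distinct seeds. Within the miR-200 family, miR-200b-3p and miR-200c-3p were identical at 20 of 22 positions, as were miR-200a-3p and miR-141-3p, although the partners of each pair lie on different chromosomes.

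Of the 10 hairpins, 1 was touched by a hotspot. This was MIR141, whose 95-bp hairpin shared 41 bp with a hotspot at chr12:6963829-6964137. That hotspot was 309 bp wide with a score of 4.47, and only 4.07% of all hotspots scored lower. Over all miRNA genes, 12.0% had a hotspot over the hairpin. When the hairpin and the 10 kb upstream on its own strand were searched, a stretch termed the window, 7 of the 10 members had a hotspot, at 4 of the 6 loci, and over all miRNA genes the share was 60.8%. The members' share was thus near the background. The windows held 9 distinct hotspots, 6 of which scored at or above the median of the whole list. MIR31, MIR221 and MIR222 had none.

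**Figure D1:**
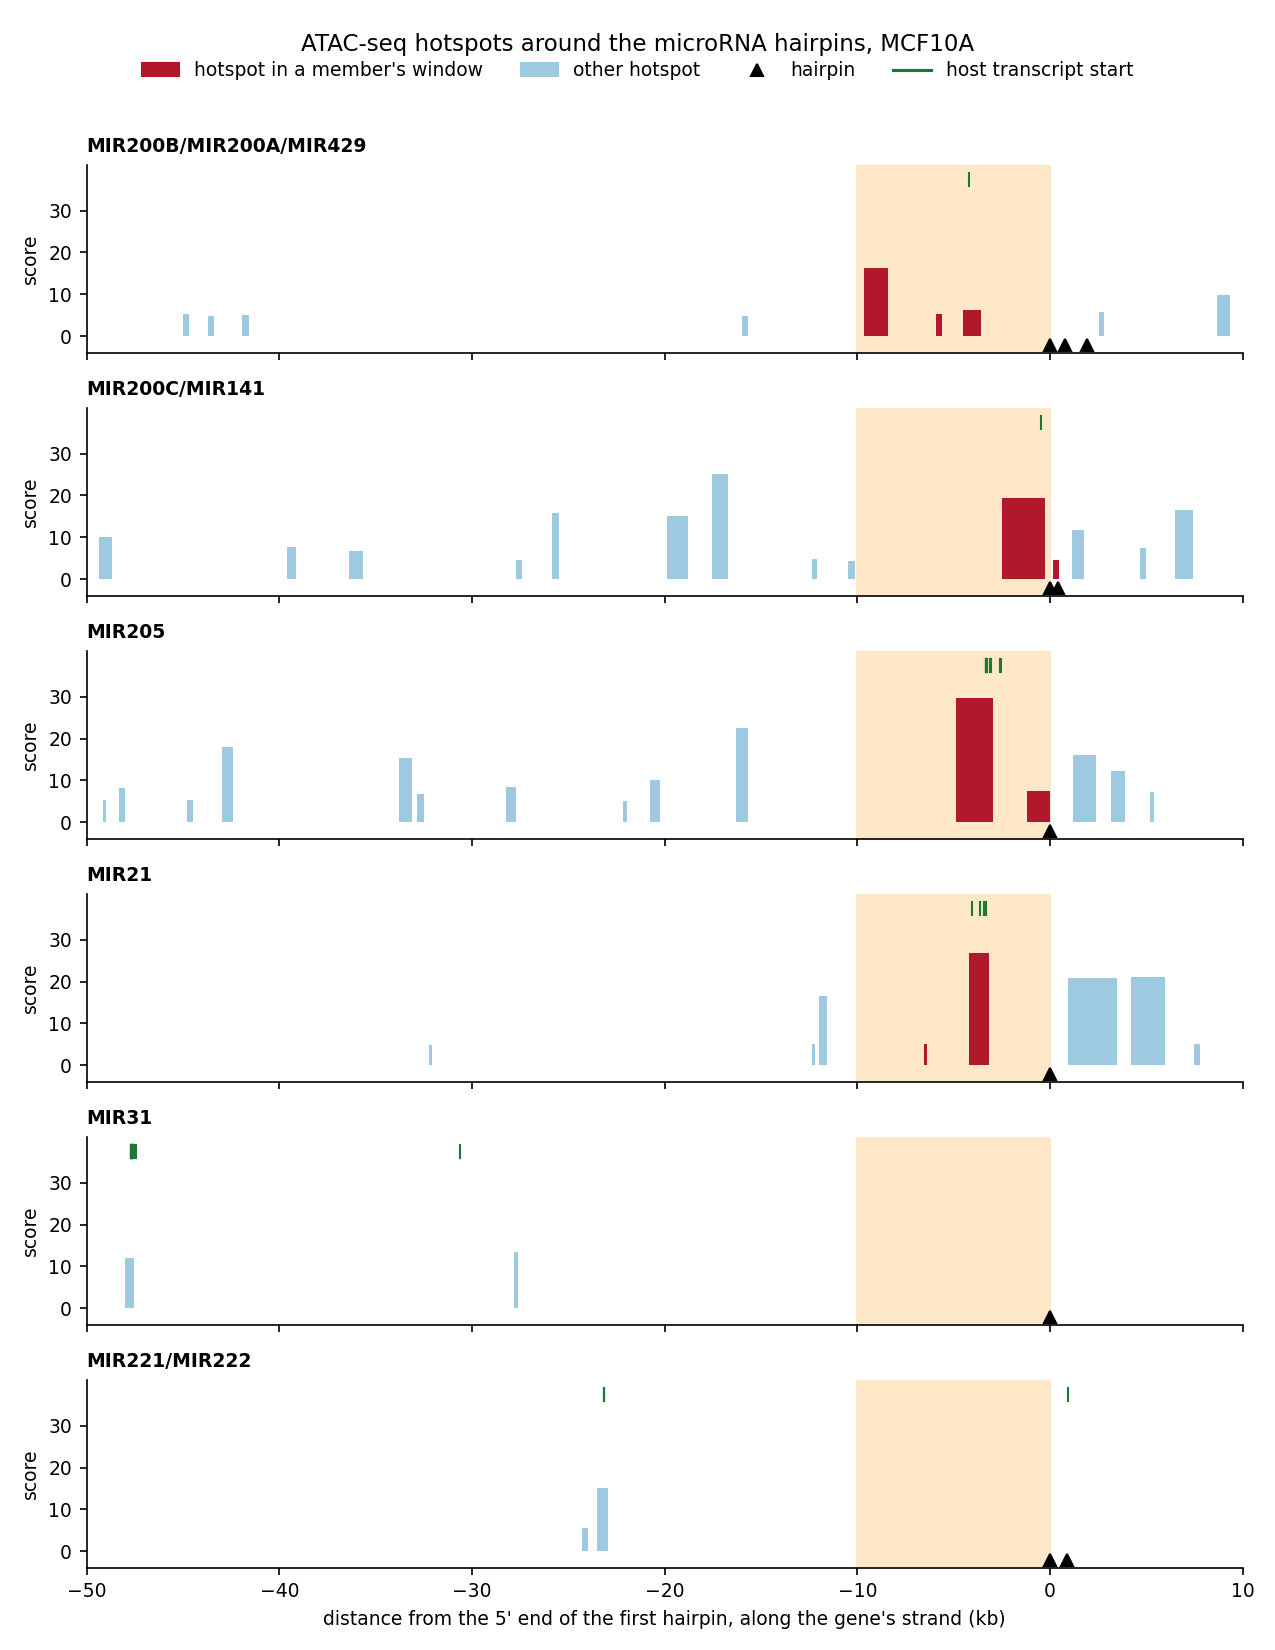
Hotspots around the 6 loci, by distance in kb from the 5′ end of the first hairpin along the gene's strand (x axis) and by score (y axis), with bar width to scale down to a drawn minimum of 0.15 kb, triangles at the hairpins, green ticks at host transcript starts and the 10 kb upstream shaded. The strongest window hotspot of each of the 4 upper loci scores 16.3 to 29.8. The MIR31 and MIR221/MIR222 panels have no hotspot in the window, with their nearest upstream hotspots at 27627 and 22931 bp.

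The highest score of the members was at MIR205, whose product is a marker of basal breast epithelium. The hairpin lies at chr1:209432133-209432242 on the plus strand, and its window held 2 hotspots. The stronger, at chr1:209427270-209429152, was 1883 bp wide with a score of 29.8, above 96.8% of all hotspots. It held the start of the host gene MIR205HG, a lncRNA from which miR-205 is cut: all 10 of its annotated transcription start sites (TSSs) were within 1000 bp of this hotspot. The weaker, at chr1:209430955-209432109, was 1155 bp wide with a score of 7.55 and stopped 24 bp before the hairpin. The hairpin itself crossed an exon edge in 12 of the 17 MIR205HG transcripts and lay within an intron in 3. The locus had further hotspots on both sides, with a score of 22.6 at chr1:209415808-209416474, upstream of the window, and scores of 16.0, 12.1 and 7.23 in the 10 kb downstream.

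A stretch of the weaker MIR205 hotspot is shown because the hotspot carried more p53-family half-sites than any other window hotspot, TP63 being the p53 relative that basal epithelium expresses. It spans chr1:209431060-209431359 on the plus strand of hg38, with 2 half-sites and 1 AP-1 site (TGAGTCA, on the other strand here) in capitals.
MIR205 proximal hotspot: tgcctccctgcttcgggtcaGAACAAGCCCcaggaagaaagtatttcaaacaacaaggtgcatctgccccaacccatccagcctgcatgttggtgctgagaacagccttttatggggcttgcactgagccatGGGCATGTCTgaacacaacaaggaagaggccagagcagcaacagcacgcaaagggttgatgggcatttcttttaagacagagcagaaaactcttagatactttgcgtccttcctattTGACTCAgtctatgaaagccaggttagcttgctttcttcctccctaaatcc
The whole hotspot held 4 half-sites, and 0.130% of the 3085 hotspots of a width within 10% of it held as many. That share comes from a hotspot picked for its count among the 9 of the windows. Base composition was not matched, and 10.1% of the 3085 had a lower GC content. The half-sites lay 1053, 941, 461 and 168 bp before the hairpin. A match is only a run of letters, and binding of TP63 was not measured. TP63 itself had no hotspot at a TSS of its protein-coding transcripts.

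MIR21 stood next. Its product is among the microRNAs most often raised in tumours, and its hairpin lies at chr17:59841266-59841337 on the plus strand. The hotspot at chr17:59837082-59838087 was 1006 bp wide with a score of 26.8, above 95.8% of all hotspots, and ended 3179 bp before the hairpin. MIR21 lies in VMP1, a gene for a protein of autophagy, on the same strand, and its hairpin was within an exon of 10 of the 20 VMP1 transcripts. VMP1 had 16 distinct TSSs, of which 10 lay together far upstream, and 5 lay inside this hotspot, the nearest of them 3315 bp before the hairpin. The upstream start of VMP1 had a hotspot of its own at chr17:59707060-59708295, with the highest score of any host start, 41.7. The window of MIR21 held 1 more hotspot, 99 bp wide with a score of 5.07. Past the hairpin 2 wide hotspots followed, at chr17:59842212-59844744 with a score of 20.9 and at chr17:59845472-59847210 with a score of 21.0, and at 2533 bp the first of them was wider than 99.8% of all hotspots.

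A stretch of the MIR21 upstream hotspot is shown because 3 of the 5 inner VMP1 starts fall in it, and a TSS there is the candidate start of a primary miR-21 transcript. It spans chr17:59837675-59837974 on the plus strand of hg38. Capitals mark, in order, a GRHL match (AACCNGTT) and a STAT match (TTCNNNGAA).
MIR21 upstream hotspot: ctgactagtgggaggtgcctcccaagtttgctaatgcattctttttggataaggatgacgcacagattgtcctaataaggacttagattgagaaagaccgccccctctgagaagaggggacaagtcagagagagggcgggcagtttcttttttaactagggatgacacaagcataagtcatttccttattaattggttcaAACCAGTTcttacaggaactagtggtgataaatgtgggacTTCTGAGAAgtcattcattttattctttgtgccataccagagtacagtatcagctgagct
This hotspot held 2 GRHL matches, a number reached by 0.252% of 4757 hotspots of like width. It held 1 match each for AP-1 and STAT, which 20.7% and 17.0% of those hotspots also held. GRHL was one of several motifs searched. Base composition was not matched, and 1.79% of the 4757 had a lower GC content. The AP-1 match lay 4034 bp and the STAT match 3351 bp before the hairpin. GRHL factors maintain epithelial cells, and STAT3 and AP-1 are known regulators of MIR21.

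At the MIR200C/MIR141 locus, a single wide hotspot preceded both hairpins, which lie on the plus strand at chr12:6963699-6963766 and chr12:6964097-6964191. It spanned chr12:6961228-6963415, and its 2188 bp made it wider than 99.6% of all hotspots. Its score of 19.5 was above 92.4% of them. It held the only annotated TSS of MIR200CHG, the host lncRNA, and ended 284 bp before MIR200C, which lies with MIR141 in an intron of that transcript. The TSS was 473 bp before MIR200C and 871 bp before MIR141. Downstream, scores in the next 10 kb reached 16.6, in a hotspot that holds the start of PHB2, a neighbouring gene of the mitochondrial inner membrane.

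At the MIR200B/MIR200A/MIR429 locus, scores were lower near the start. The hairpins lie on the plus strand at chr1:1167104-1167198, chr1:1167863-1167952 and chr1:1169005-1169087. The host MIR200BHG, which is annotated in RefSeq and has no GENCODE entry of that name, starts 4227 bp before MIR200B within a hotspot at chr1:1162567-1163517. This hotspot was 951 bp wide with a score of 6.32, above 57.1% of all hotspots. The highest score of the locus, 16.3, belonged to a 1239-bp hotspot farther upstream, at chr1:1157451-1158689. It lay in the windows of MIR200B and MIR200A but beyond that of MIR429, whose highest score was therefore 6.32. The remaining hotspot, 295 bp wide, scored 5.35. MIR200B and MIR200A share all 3 hotspots, and MIR429 shares 2 of them, so the members of the cluster are not independent of each other.

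The promoters of the miR-200 host genes are shown because ZEB1 and ZEB2, which bind CACCTG, are the repressors by which these genes are best known. Each runs from 250 bases before to 50 after the RefSeq start (GRCh38.p14), on the plus strand, with CACCTG on either strand in capitals. The first is chr1:1162627-1162926 and the second chr12:6962995-6963294.
MIR200BHG: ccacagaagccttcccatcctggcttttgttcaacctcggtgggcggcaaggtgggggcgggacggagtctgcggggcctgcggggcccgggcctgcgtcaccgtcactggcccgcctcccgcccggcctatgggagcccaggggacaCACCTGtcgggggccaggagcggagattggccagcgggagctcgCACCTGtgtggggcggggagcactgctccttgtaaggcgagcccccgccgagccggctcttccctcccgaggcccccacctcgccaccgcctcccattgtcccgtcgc
MIR200CHG: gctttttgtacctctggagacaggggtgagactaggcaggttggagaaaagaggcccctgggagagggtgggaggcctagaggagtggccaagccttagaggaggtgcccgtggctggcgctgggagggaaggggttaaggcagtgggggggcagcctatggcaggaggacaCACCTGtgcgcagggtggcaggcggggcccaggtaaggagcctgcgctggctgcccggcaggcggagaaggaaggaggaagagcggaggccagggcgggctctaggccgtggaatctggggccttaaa
Both stretches lay wholly inside a hotspot. The MIR200BHG promoter had 2 matches, starting 102 and 58 bases before its TSS, and the MIR200CHG promoter had 1, starting 78 bases before. Of the other hosts, the promoter of MIR31HG, the MIR31 host described below, also had 1, starting 34 bases before its TSS. Those of MIR205HG, VMP1 and MIR222HG had 0. Among all RefSeq promoters of the same length, 20.6% held the motif. Over the whole hotspot at the MIR200BHG start there were 5 matches, and 2.18% of 5330 hotspots of like width had as many. Base composition was not matched, and 92.7% of the 5330 had a lower GC content. CACCTG was one of several motifs searched. The hotspot at the MIR200CHG start had 3, as many as 28.3% of hotspots of its width. ZEB1 and ZEB2 each had a hotspot at a TSS, with scores of 11.6 and 8.62, lower than at the start of MIR200CHG and higher than at the start of MIR200BHG.

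MIR31, whose hairpin lies on the minus strand at chr9:21512115-21512185, had no hotspot within 10 kb on either side. Its nearest upstream hotspot, at chr9:21539812-21540010, began 27627 bp from the hairpin, was 199 bp wide and scored 13.5, and 83.0% of miRNA genes had one nearer. The host lncRNA MIR31HG, in an intron of which MIR31 lies in 21 of 27 transcripts, had a hotspot over its main start at chr9:21559720-21560170, 451 bp wide with a score of 12.0. Of its 21 distinct TSSs, 15 were within 1000 bp of that hotspot, and the nearest of those was 47425 bp from the hairpin. A TSS closer to the hairpin, at 30620 bp, was 2795 bp from any hotspot. The wider surroundings were sparse: 29 hotspots lay within 1 Mb of MIR31, or 14.5 per Mb against 54.8 over chromosome 9, and 0.426% of miRNA genes had fewer. The corresponding counts for the other loci ran from 102 to 218, and the median over all miRNA genes was 166. Copy number was not measured, and its part in these counts was not tested.

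**Figure D2:**
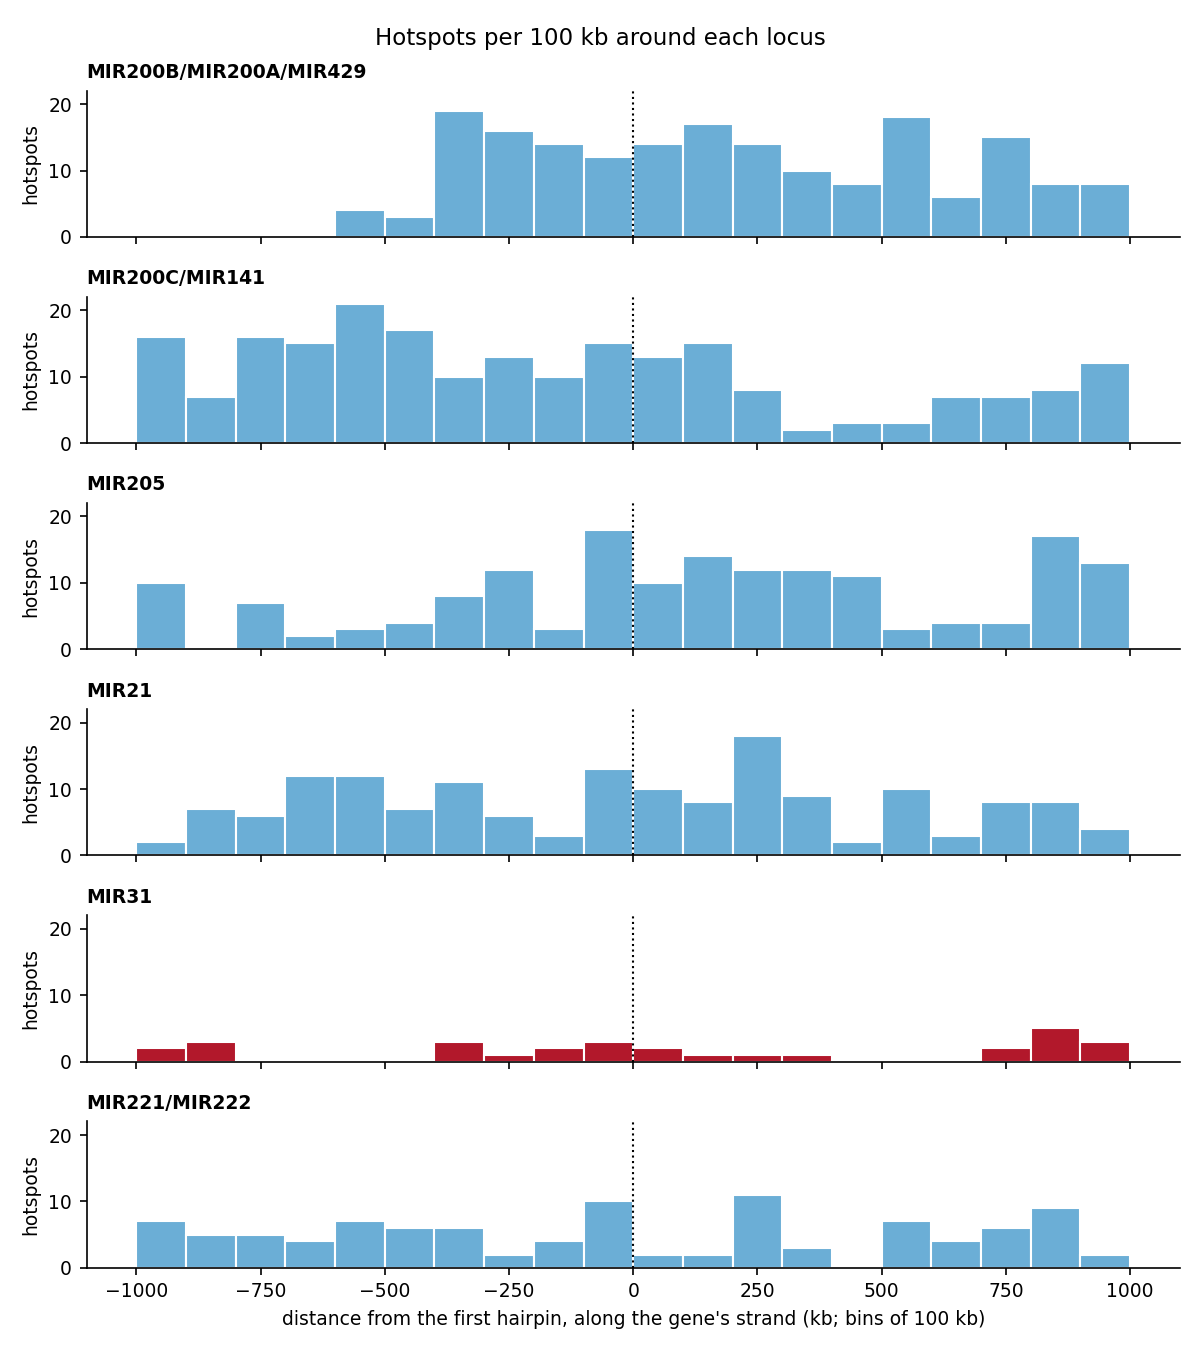
Number of hotspots (y axis) in bins of 100 kb over 1 Mb on either side of the first hairpin of each locus (x axis, along the gene's strand), with MIR31 in red and the dotted line at the hairpin. MIR31 has 29 hotspots over the whole span, fewer than the 102 of MIR221/MIR222 and the 159 to 218 of the other 4 loci.

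MIR221 and MIR222, on the minus strand at chrX:45746157-45746266 and chrX:45747015-45747124, were the other members without a window hotspot. The hotspot nearest upstream ended 22931 bp before MIR222 and 23789 bp before MIR221, and it was the one at the start of the host lncRNA MIR222HG. It spanned chrX:45770055-45770617, 563 bp with a score of 15.0, above 88.7% of all hotspots. Of the 4 annotated TSSs, 3 lay in it. The fourth lies within MIR221 and was 23875 bp from any hotspot. From the MIR222HG start, no hotspot followed for 105285 bp, a stretch that takes in both hairpins, and 2.66% of the gaps between hotspots on the X chromosome were longer. Within 1 Mb of the hairpins there were 51.0 hotspots per Mb against 43.7 over the chromosome, and the count of 102 was below the median of 166 over all miRNA genes, of which 21.9% had fewer.

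The promoters of MIR31HG and MIR222HG are shown for their contrast in CpG content. They are RefSeq promoters (GRCh38.p14) on the minus strand, chr9:21559749-21560048 and chrX:45770218-45770517, with each CpG dinucleotide in capitals.
MIR31HG: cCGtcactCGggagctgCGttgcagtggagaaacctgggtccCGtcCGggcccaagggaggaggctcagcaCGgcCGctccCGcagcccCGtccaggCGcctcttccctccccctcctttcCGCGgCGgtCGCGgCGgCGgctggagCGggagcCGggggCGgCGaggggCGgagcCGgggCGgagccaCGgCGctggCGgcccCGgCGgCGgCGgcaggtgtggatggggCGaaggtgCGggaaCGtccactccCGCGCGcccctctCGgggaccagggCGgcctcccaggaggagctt
MIR222HG: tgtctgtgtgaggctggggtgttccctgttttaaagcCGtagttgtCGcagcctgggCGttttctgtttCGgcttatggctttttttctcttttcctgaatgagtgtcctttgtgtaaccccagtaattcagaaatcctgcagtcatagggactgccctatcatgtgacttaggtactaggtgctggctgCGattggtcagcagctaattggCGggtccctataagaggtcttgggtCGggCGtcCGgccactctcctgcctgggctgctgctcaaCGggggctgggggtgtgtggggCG
The MIR31HG promoter had 39 CpG sites and the MIR222HG promoter 11 in the same 300 bases, with a GC content of 77.7% and 54.7%. Both lay wholly in a hotspot, so open chromatin at the host start was seen with either composition.

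A common layout followed from these positions. Every host gene had a hotspot at its start: 5 of 5 GENCODE hosts and MIR200BHG from RefSeq. Of these, 4 are GENCODE lncRNAs that hold a member on their strand, and 60.7% of the 229 such lncRNAs for any miRNA had a TSS hotspot, against 40.1% of all 18866 lncRNA genes. VMP1 is protein-coding, and 74.9% of protein-coding genes had one. A hotspot at any TSS counted, and MIR205HG, VMP1 and MIR31HG had 10, 16 and 21 TSSs. The number of TSSs was not matched in these shares. The members with a window hotspot had their nearest host TSS with a hotspot 473 to 6128 bp upstream. The 3 without had theirs 23143 to 47425 bp away. As every host had a TSS hotspot, a start within 10 kb largely places one in the window, so this division follows mostly from the definitions. Where the primary transcripts start in these cells was not measured. Extended to 50 kb upstream, a length chosen after these distances were seen, the window held a hotspot for all 10 members, but also for 92.2% of all miRNA genes.

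Base composition divided the same hotspots in another way. The 3 hotspots of the MIR200B/MIR200A/MIR429 locus had GC contents of 65.8% to 72.3%, higher than in 85.5% to 95.2% of hotspots of like width. At the other end, the MIR21 upstream hotspot had 42.3% GC, and 1.79% of hotspots of like width had less. The MIR205HG start had 50.1%, with 4.35% of hotspots of its width lower, and 1.75 CpG per 100 bp. The MIR31HG start was the richest in CpG, at 10.4 per 100 bp, above 98.4% of hotspots of like width. Of the 12 hotspots, the strongest of MIR21 and of MIR205 thus had the lowest GC content for their width, which is a description and no test.

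**Figure D3:**
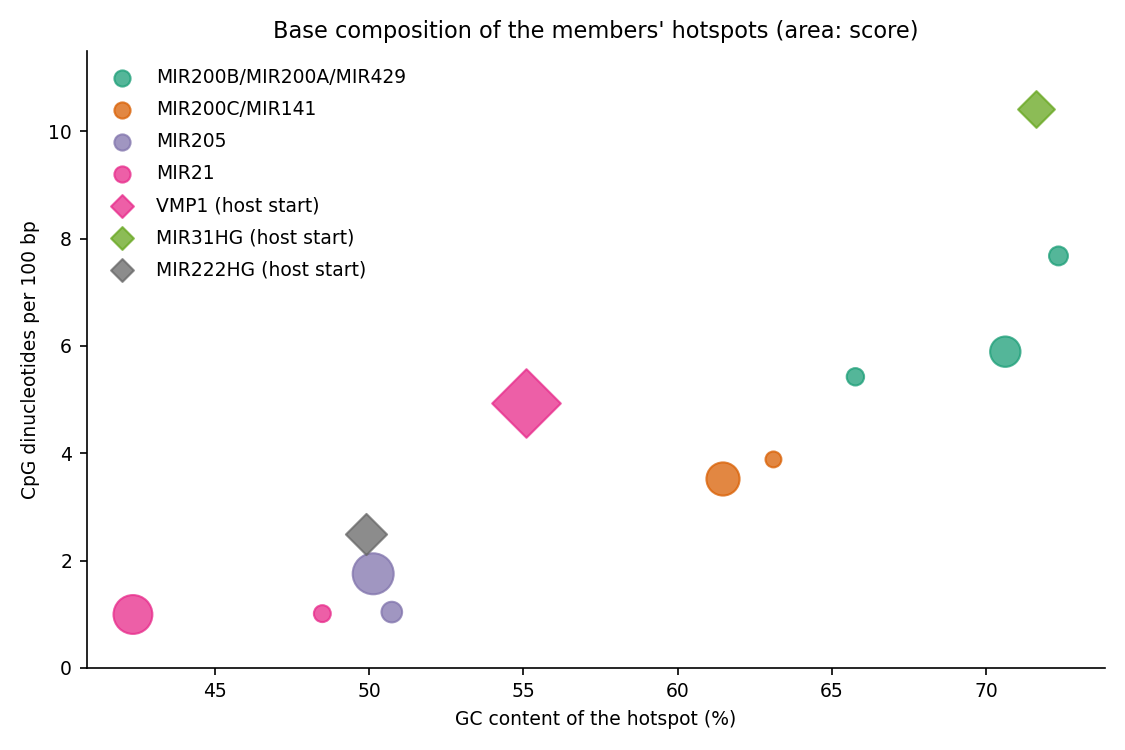
GC content in percent (x axis) against CpG dinucleotides per 100 bp (y axis) for the 9 window hotspots (circles) and the 3 host starts outside the windows (diamonds), with area proportional to score. MIR21 and MIR205 lie at the lower left, at 42.3% to 50.7% GC, and the MIR200B/MIR200A/MIR429 hotspots and the MIR31HG start at the upper right. The MIR222HG start, at 49.9% GC and 2.49 CpG per 100 bp, lies in the same GC range as MIR21 and MIR205.

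Over the 9 window hotspots, AP-1 was in 3, CACCTG in 6, the TEAD motif GGAATG in 5, the SP/KLF motif CCGCCC in 6, the RUNX motif TGTGGT in 2, and the p53-family half-site in 4. The mean shares over hotspots of the same widths were 16.8%, 53.6%, 33.5%, 55.8%, 32.6% and 19.1%. GRHL and STAT matches were in 2 hotspots each, those at MIR205HG and MIR21, against mean shares of 4.87% and 16.6%. When only the central 120 bp were searched, 0 of the 9 had an AP-1 site, which was in the centre of 5.81% of all hotspots. Longer hotspots tended to hold more matches, but not of every motif at every width. AP-1 was in 22.7% of hotspots near 563 bp wide, 19.0% near 1155 bp and 24.4% near 2188 bp. Members of a cluster share hotspots.

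Ranked among all miRNA genes by the highest score in the window, MIR205 was above 92.2% of them, MIR21 above 90.0%, MIR200C and MIR141 above 83.2%, MIR200B and MIR200A above 80.2%, and MIR429 above 59.7%. Their median over the 7 members with a hotspot was 19.5, and over the 1143 miRNA genes with one it was 8.97. These 7 members lie at 4 loci and are not independent. MIR200C and MIR141 share their highest hotspot, as do MIR200B and MIR200A. For comparison, 16 microRNA genes known from liver, muscle, blood, neurons, islets, mesenchyme or endothelium were read in the same way. A window hotspot was present for 8 of the 16, where the share over all miRNA genes was 60.8%. Among those 8, the median highest score was 5.32. The highest were 13.1 at MIR137 (neurons), 12.8 at MIR375 (pancreatic islets) and 9.17 at MIR9-1 (neural). The values of MIR205, MIR21, MIR200C, MIR141, MIR200B and MIR200A were above these, and MIR429 was below them. None was present for MIR122 of liver, MIR206, MIR133B and MIR208A of muscle and heart, MIR143 and MIR145 of smooth muscle, or MIR150 and MIR223 of blood. With hotspots at or above the median score alone, 7 of 10 members and 3 of 16 of the other genes kept a window hotspot, and 42.6% of all miRNA genes had one.

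**Figure D4:**
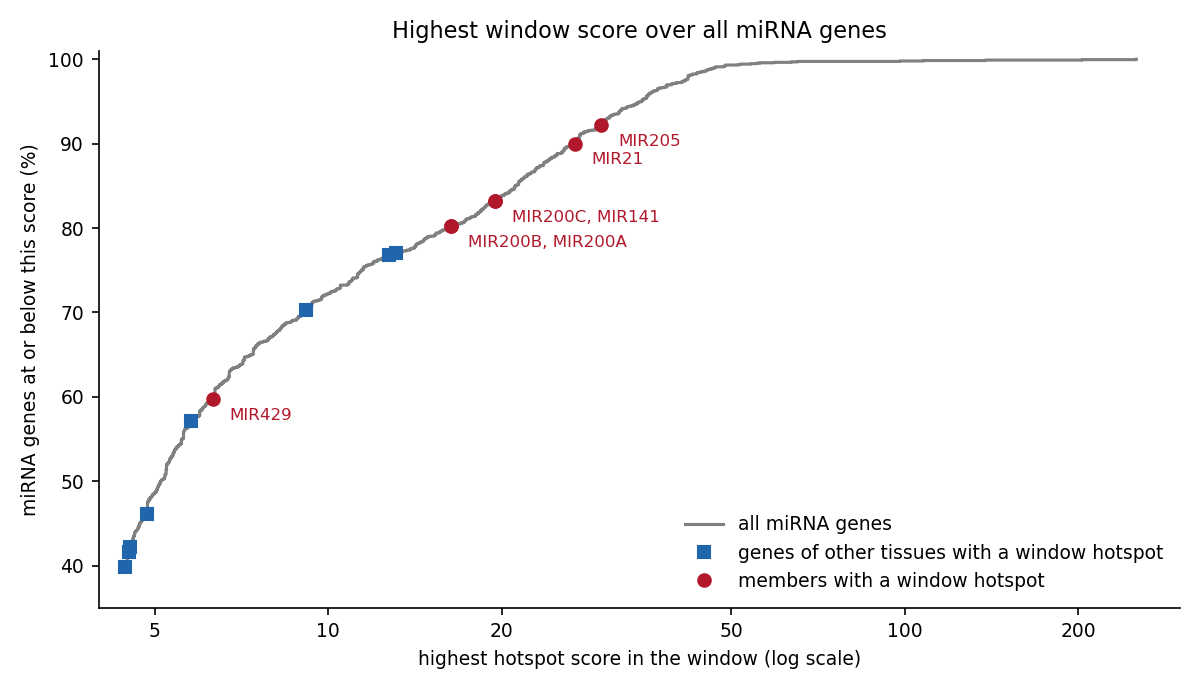
Percentage of all 1879 miRNA genes (y axis) against the highest hotspot score in the hairpin and 10 kb upstream (x axis, log scale), with the 7 members that have a window hotspot in red and the 8 genes of other tissues that have one in blue. The members run from 6.32 at MIR429 to 29.8 at MIR205, and the genes of other tissues do not pass 13.1.

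The 5 highest window scores of any miRNA gene were far above those of the members and lay at ENSG00000264063 (252), MIR8078 (203), ENSG00000278791 (138), MIR4485 (108) and MIR1184-1 (98.1). Whether reads of repeated sequence contribute there was not tested.

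The genes that make, read or regulate these microRNAs were compared by the hotspot at any TSS of their protein-coding transcripts, which 74.9% of 19663 protein-coding genes had, with a median score of 20.7. All 14 genes of the processing machinery had one, with a median score of 34.0, led by PRKRA at 57.1, TNRC6C at 51.7 and TNRC6B at 45.2. PRKRA is a partner of DICER1, and the TNRC6 proteins silence the bound mRNA. DROSHA and DICER1, the enzymes that cut the primary transcript and the hairpin, scored 35.3 and 32.7. All 20 known targets had one too, with a median of 25.0, led by FOXO3 at 41.6, RHOA at 40.0 and ERBB3 at 38.7. Among targets of the members without a window hotspot, CDKN1B scored 32.7 and KIT, a receptor repressed by miR-221/222, 7.49. Of 12 known regulators 11 had one, led by KLF5 at 42.8, JUN at 42.5 and STAT3 at 41.1. The exception was TP63, which had none at any TSS of its protein-coding transcripts.

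**Figure D5:**
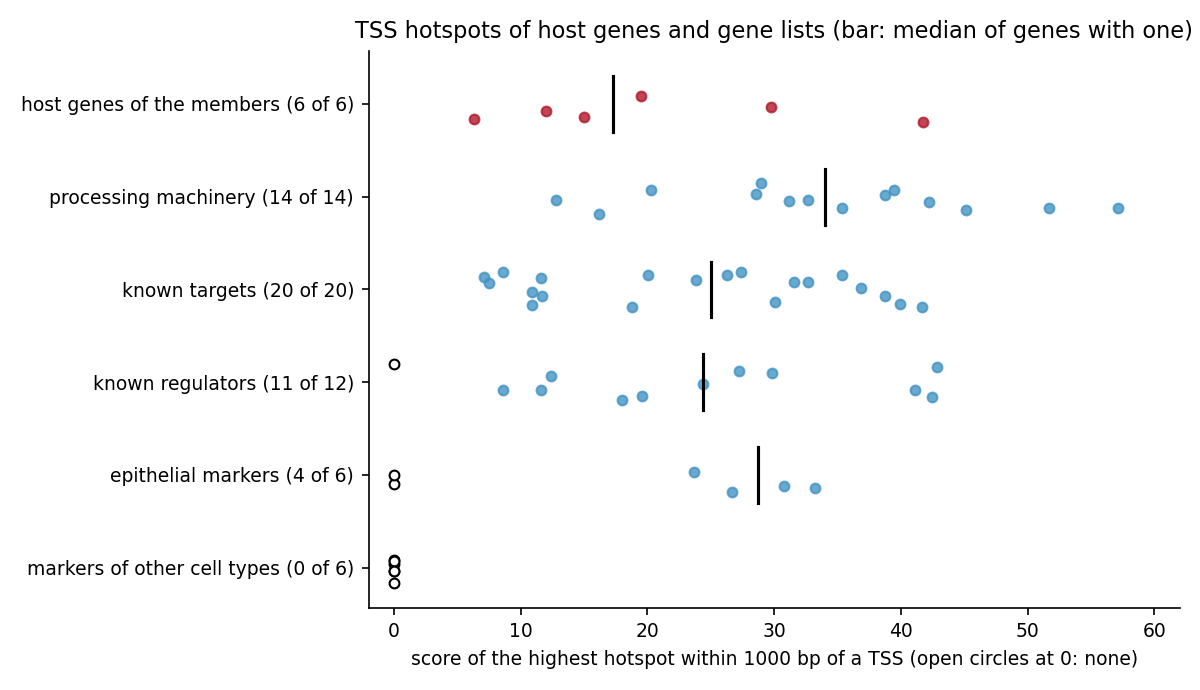
Score of the highest hotspot within 1000 bp of a TSS (x axis) for the 6 host genes in red and for the genes of each list in blue, with open circles at 0 for genes without one and a bar at the median of the genes that have one. The host genes run from 6.32 for MIR200BHG to 41.7 for VMP1, within the range of the lists.

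The label of the cells was checked against markers. Of 6 epithelial markers, KRT5, CDH1, EPCAM and LAMA3 had a TSS hotspot, with scores of 30.8, 26.7, 23.7 and 33.2, and KRT14 and TP63 had none. Such a hotspot was at 74.9% of all protein-coding genes, so this count alone does not single out epithelial cells. Of 6 markers of blood, liver and neurons (PTPRC, CD3E, ALB, APOB, NEUROD1 and DCX), none had one at a protein-coding transcript.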

How the data were processed

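The authors mapped ATAC-seq reads (pairs of 75 bases) of 5 MCF10A replicates to hg38 using Bowtie2, pooled the alignments, discarded duplicates and called enriched regions with Hotspot, the false discovery rate being 0.01. A shift for the Tn5 offset is not stated, which could move edges by a few bases. The deposited score of each hotspot is what that program wrote. Its reference level is not given in the sources used here, and it was used only to rank. Depth per replicate is unknown.

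Hotspots were set against GENCODE release 44 and RefSeq positions of hg38. The window was the hairpin and 10 kb upstream, an overlap of 1 bp counted, and TSS hotspots lay within 1000 bp. Hosts used all transcripts and gene lists the protein-coding ones. Motifs were searched on both strands. Named were all members and hosts, the strongest hotspot of each locus or those over a hairpin or TSS, the 5 highest miRNA loci and, of each list, the 3 highest and all without a hotspot; DROSHA, DICER1, ZEB1, ZEB2, CDKN1B and KIT were added for their roles after their values were seen. The members and lists were chosen with earlier results of these data known. The overlap search was tested on simulated data. Alternatives were other window lengths, overlap rules and score limits. Software was Python 3.11.15 with numpy 2.4.6, pandas 2.3.3, pysam 0.24.0 and matplotlib 3.10.9.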

Additional observations from a re-analysis of the deposited data

How the results depend on the processing

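The number of members with a window hotspot was 6 with 5 kb upstream and 7 with 20 kb, with midpoints in the window or with hotspots at or above the median score. With hotspot midpoints within 250 bp of the hairpin 2 members counted in place of 1, and at or above the median score 0 did. The windows held 17 distinct hotspots with 20 kb upstream in place of 9. The share of all miRNA genes with a window hotspot moved from 60.8% to 45.1% with 5 kb, to 77.5% with 20 kb, to 92.2% with 50 kb (added after the data were seen) and to 42.6% at or above the median score. Of the genes of other tissues, 3 in place of 8 had one at or above the median score. Of the 6 markers of other cell types, 1 had a TSS hotspot within 2000 bp, and 2 had one when all transcripts were used, also added later. An AP-1 site was in the central 120 bp of 0 window hotspots and in 3 over their whole width. The other 33 alternatives stayed within 1.5 times the count or within its interval, the 5 GENCODE hosts included. Leaving out a replicate could not be run on a pooled list. No paired analysis was possible because the replicates were pooled before the calls. With unknown depth, a hairpin or start without a hotspot is one where none was called, which does not show closed chromatin.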

Other observations

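Scores were not spread evenly. Of all hotspots, 65.1% shared their score with another, and the most frequent value was carried by 8035. From 4.48 upward, 30.7% lay within 0.0015 of steps of 0.376. None of the 9 window hotspots was on these steps, and of the 6 host starts those of VMP1, MIR31HG and MIR222HG were. What sets the steps is not given in the sources used here, and ties in rank follow from them.

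Around MIR31, 7 stretches of over 100 kb without a hotspot reached into the 1 Mb on either side. The longest, 485 kb, lay on the upstream side, ranked 5 by length among the gaps on chromosome 9, and wholly held CDKN2A and CDKN2B. The MIR200B/MIR200A/MIR429 and MIR221/MIR222 loci had 2 such stretches each, MIR205 had 1, and MIR200C/MIR141 and MIR21 had 0. Copy number was not measured, and its part in these stretches, the one with CDKN2A and CDKN2B included, was not tested.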
